A study of Rattus norvegicus with 6 samples.

Results

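The complement genes described here are 31 named components, receptors and regulators of the complement system, measured in synovial tissue of arthritic rats with and without triptolide. A probe was taken as a member when its gene name in the array files equalled one of the 31 names. By this rule 28 genes had at least 1 probe, with 41 probes in all among 41012 on the array, whose files hold 35071 distinct gene names; C4b, C7 and Fcna had none. Testing required a signal well above background on 3 or more arrays; 21 of the 28 genes (27 probes) met this, among 25783 tested probes.

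The tissue came from the hind-leg ankle joints of male rats aged 8 weeks. All rats in both groups were given 0.1 ml of Freund's complete adjuvant into the peritoneum daily for 18 days, which provokes adjuvant arthritis. The group AA (3 samples) then received saline for 14 days, and the group TP (3 samples) received triptolide, a diterpenoid from the vine Tripterygium wilfordii, at 0.4 mg/kg daily for the same time. No healthy group was analysed here, so each comparison is between arthritic tissue with and without the compound. Total RNA (0.5 ug) was labelled with Cy3 and hybridised to a 1-colour rat oligonucleotide array. The labels number the samples without saying that they came from separate animals. The p-values then reflect only how these samples scatter, and that scatter may be technical.

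Complement is a cascade of plasma and tissue proteins that marks particles for removal, releases the chemoattractant fragments C3a and C5a, and can end in a pore in the target membrane. The classical pathway starts when C1q, carrying the proteases C1r and C1s, binds immune complexes; the lectin pathway starts from mannose-binding lectins and ficolins; the alternative pathway amplifies C3 cleavage through factors B and D. Most circulating complement is made in the liver, whereas C1q comes mainly from macrophages and dendritic cells, factor D from adipocytes, and several components from fibroblasts. Complement fragments are deposited in inflamed joints, and mice lacking alternative pathway or C5 function are protected in antibody-driven arthritis.

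Between 59.6% and 65.1% of the 43379 non-control spots of an array were well above background and 0 were saturated. Array TP 1 was hybridised on slide 1 with all 3 AA arrays, and TP 2 and TP 3 on slide 2, so slide and treatment were largely confounded. Arrays AA 2 and TP 2 stood apart in their tissue markers. Skeletal muscle markers (18 of 19 on the array, 17 tested) averaged 8.05 above their own 6-array mean in AA 2, against -3.92 to 1.61 on the other arrays. Peripheral nerve markers (10 tested of 13) and smooth muscle and pericyte markers (10 tested of 11) averaged 2.19 and 1.97 in TP 2 and at most 0.23 elsewhere. Prg4, the lubricin gene of the synovial lining, read 6.81, 4.27 and 7.37 in AA 1 to 3 and 6.55, 3.52 and 6.74 in TP 1 to 3, so both arrays were low in it. In bulk tissue, fewer cells of a type and less RNA per cell cannot be told apart. Values below are log2 signals relative to the array's own 75th percentile, which is 0, and differences are TP minus AA with limma's standard error (SE).

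No complement gene passed the test between the groups. The members' adjusted p was under 0.05 for 0 of 21, against 0% of all tested probes, and the lowest adjusted p among the members was 0.994 (limma, Benjamini-Hochberg over all 25783 probes). An unadjusted p under 0.05 was reached by 0 of 21 members, against 3.24% of all tested probes. The 3 TP values lay wholly above or wholly below the 3 AA values in 0 of 21 members, against 8.64% of all tested probes. The difference was above 0 in 16 members and below 0 in 5 (C1qb, Masp1, Cfi, C6 and Cd59), against 53.8% above 0 over all tested probes. Above 0 were 13 members with median scaling of the arrays and 10 without array AA 2. With slide as a block, which rests on TP 1 alone against the AA arrays, 14 were above 0. The members' median difference was 0.11, beside 0.023 over all tested probes; it was -0.063 without array AA 2. Typical differences were about the size of those of all tested probes, with a median absolute difference of 0.171 against 0.169. The spread within groups was wider, with a median within-group SD of 0.465 against 0.283 and a median 95% confidence interval 1.59 wide against 1.09. Where a member's interval is given below, it holds the differences compatible with these arrays at 95% confidence.

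**Figure D1:**
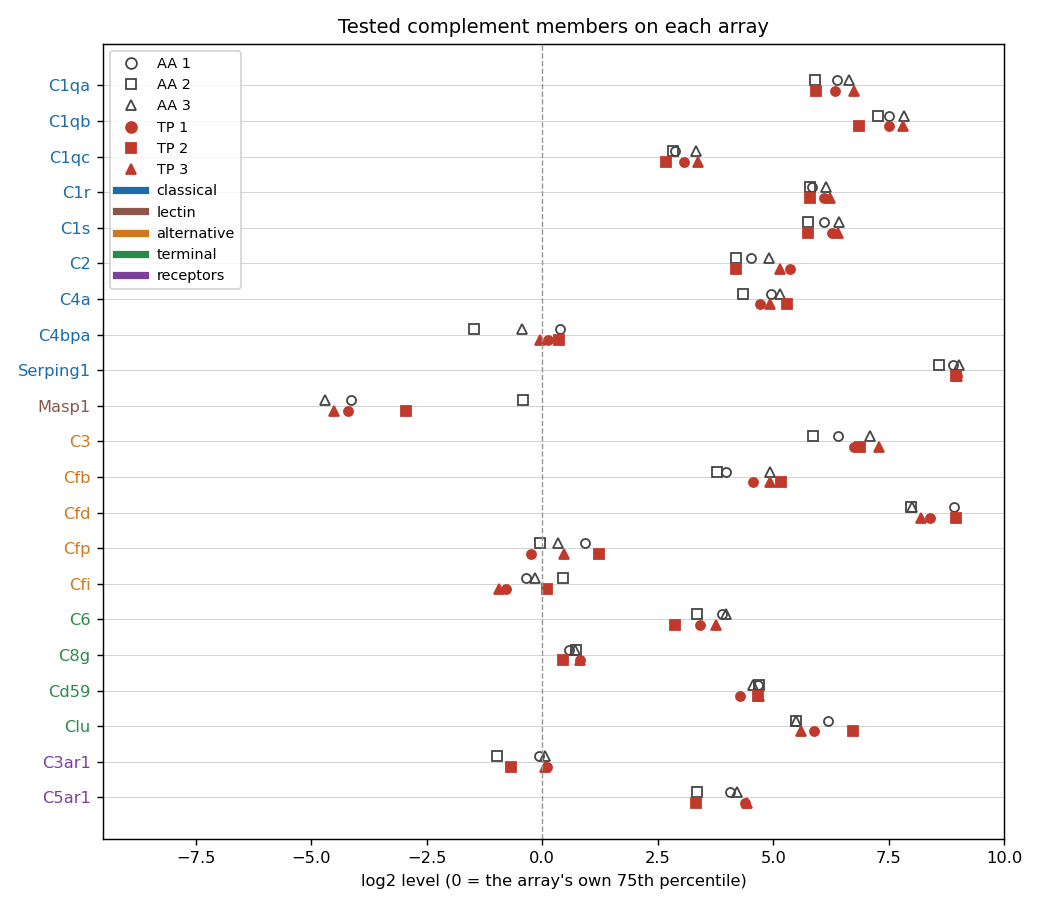
Log2 level of each tested complement member on each array (0 is the array's 75th percentile), open symbols for AA 1 to 3 and filled red symbols for TP 1 to 3, with 1 probe per gene and gene names coloured by step. The AA and TP symbols overlap in all 21 members, and the squares (AA 2 and TP 2) are often at one end.

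C1q is built from 3 chains encoded by the neighbouring genes C1qa, C1qb and C1qc, whose differences between the groups ran from -0.14 to 0.030. C1qa read 6.39, 5.90 and 6.63 in AA 1 to 3 and 6.33, 5.93 and 6.74 in TP 1 to 3. Both groups span the same range, and arrays AA 2 and TP 2 are the lowest of their groups. The means were 6.31 ± 0.37 and 6.34 ± 0.40 (SD, n = 3 each), a difference of 0.029 (SE 0.28, 95% confidence interval -0.66 to 0.72), or 1.02-fold (0.634 to 1.64). Its other probe differed by 0.0035. The C1qa difference was 0.32 with normexp background correction and ran from -0.17 to 0.23 with 1 array left out.

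C1qb read 7.50, 7.26 and 7.83 in AA and 7.51, 6.85 and 7.81 in TP. Again AA 2 and TP 2 are lowest, TP 2 being the lowest of all 6. The difference was -0.14 (SE 0.29, interval -0.85 to 0.56). C1qc read 2.87, 2.82 and 3.33 in AA and 3.06, 2.68 and 3.38 in TP, a difference of 0.030 (SE 0.24), and its other probe differed by -0.043. The 3 chains thus share 1 order of arrays, high in AA 3 and TP 3 and low in AA 2 and TP 2, in both groups.

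The promoters of C1qa and C1qb are shown because these genes move together across the arrays. Each runs from 250 bases before to 50 after the start site in RefSeq on build GRCr8 and is printed 5′ to 3′ on the minus strand, C1qa at chr5:154419884-154420183 and C1qb at chr5:154407778-154408077. Capitals mark the letters TGCTGA or their reverse complement TCAGCA, which are bound by MAF factors.
C1qa: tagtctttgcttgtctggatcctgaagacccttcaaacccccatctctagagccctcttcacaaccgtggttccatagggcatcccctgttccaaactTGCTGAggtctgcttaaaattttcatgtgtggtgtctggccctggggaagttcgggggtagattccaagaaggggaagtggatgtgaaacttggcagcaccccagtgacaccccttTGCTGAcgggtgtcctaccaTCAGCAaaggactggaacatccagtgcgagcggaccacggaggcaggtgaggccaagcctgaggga
C1qb: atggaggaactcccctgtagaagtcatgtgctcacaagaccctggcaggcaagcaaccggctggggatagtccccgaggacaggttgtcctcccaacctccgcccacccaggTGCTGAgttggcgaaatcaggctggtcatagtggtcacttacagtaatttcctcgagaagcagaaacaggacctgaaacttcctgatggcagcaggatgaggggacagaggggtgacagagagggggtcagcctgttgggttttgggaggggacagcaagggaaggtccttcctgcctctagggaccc
The matches in C1qa begin at -152, -36 and -16 from the start site and that in C1qb at -138. On both strands, these letters occur in 18.4% of 33469 rat promoters of the same length and in 7 of the 19 members that have a promoter in the table (36.8%: C1qa, C1qb, C3, C3ar1, C8b, Fcna and Mbl1). The last letters, TGA, are also the first of the AP-1 motif TGANTCA, which is in 7.33% of all promoters and 2 of the 19, C3ar1 and Cfp. The ETS motif GAGGAA, bound by the myeloid factor PU.1, is in 27.6% of all promoters and 6 of the 19, C1qb among them. These matches describe the letters in this window only.

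The other classical pathway genes also gave intervals that cross 0. C1r and C1s, the proteases of the C1 complex, differed by 0.11 (SE 0.19) and 0.055 (SE 0.26), and their arrays again ran lowest in AA 2 and TP 2. C2, which C1s cleaves to form the C3 convertase, read 4.53, 4.20 and 4.90 in AA and 5.37, 4.20 and 5.15 in TP. TP 1 and TP 3 are above all 3 AA arrays, and TP 2 lies beside the lowest AA array. The difference was 0.36 (SE 0.35, interval -0.49 to 1.22), or 1.29-fold (0.713 to 2.33). Without array TP 2 it was 0.72, with an unadjusted p under 0.05 that did not hold after adjustment.

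C4a, the partner of C2 in the convertase, read 4.95, 4.34 and 5.15 in AA and 4.72, 5.30 and 4.93 in TP, with TP 2 the highest of the 6. The difference was 0.17 (SE 0.27), and it was -0.090 with slide as a block. C4a and C4b are near-identical copies, so this probe may report both.

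Among classical pathway regulators, Serping1 encodes the C1 inhibitor, which removes C1r and C1s from C1q. It read 8.90, 8.59 and 9.02 in AA and 8.97, 8.96 and 8.97 in TP, the TP arrays lying close together (SD 0.0097). The difference was 0.13 (SE 0.16, interval -0.27 to 0.53), or 1.09-fold (0.830 to 1.44), and that of its other probe -0.0025.

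C4bpa, the alpha chain of the C4b-binding protein that takes the classical convertase apart, had the widest within-group spread of the classical pathway. It read 0.39, -1.48 and -0.43 in AA and 0.12, 0.37 and -0.04 in TP. The TP values are close together, and AA 1 exceeds all of them. The difference was 0.65 (SE 0.46, interval -0.46 to 1.77). It was 0.17 without array AA 2 and 1.10 without AA 1. Without AA 2 and TP 2 it was 0.055, and with array weights -0.0048. In the classical pathway as a whole 9 of 10 listed genes were tested, 8 with a difference above 0 and 1 below, with a median of 0.11. Without array AA 2 that median turned to -0.063, and C1r, C2, C4bpa and Serping1 alone were above 0.

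In the alternative pathway the highest values above 0 were those of the central component and of a protease, and neither passed the test. C3, from which all pathways release C3a and C3b, read 6.41, 5.87 and 7.10 in AA and 6.76, 6.88 and 7.30 in TP. Only AA 3 among the AA arrays reaches into the TP range. The means were 6.46 ± 0.62 and 6.98 ± 0.29 (SD, n = 3 each). The difference was 0.52 (SE 0.34, interval -0.30 to 1.34), or 1.43-fold (0.811 to 2.53), with an unadjusted p of 0.175 and an adjusted p of 0.994 by limma. Leaving out 1 array at a time moved it from 0.22 to 0.84.

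Cfb, factor B, which carries the protease of the alternative convertase, read 3.98, 3.77 and 4.94 in AA and 4.57, 5.16 and 4.94 in TP. As with C3, AA 3 stands with the TP arrays and AA 1 and AA 2 lie below all of them. The difference was 0.66 (SE 0.34, interval -0.17 to 1.49), or 1.58-fold (0.890 to 2.81). Its unadjusted p of 0.0997 was the lowest of the members. Leaving out 1 array moved the difference from 0.43 to 1.01, the latter without AA 3. It was 0.30 without AA 2 and TP 2, 0.34 with slide as a block and 0.88 with normexp background correction.

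Cfb lies beside C2 on chromosome 20, and both genes encode related proteases, so their probes are shown together. In build rn4 the C2 probe lies at chr20:4071504-4071563 and the Cfb probe spans chr20:4076976-4077119, both on the plus strand; the Cfb span is longer than the probe, and exon boundaries were not analysed here.
C2: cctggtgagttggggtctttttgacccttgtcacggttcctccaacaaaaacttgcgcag
Cfb: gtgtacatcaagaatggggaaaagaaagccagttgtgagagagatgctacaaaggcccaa
These neighbours departed in opposite directions on array TP 2. Relative to the mean of TP 1 and TP 3, that array read -1.06 for C2 and 0.40 for Cfb. Relative to the mean of AA 1 and AA 3, array AA 2 read -0.52 for C2 and -0.68 for Cfb, both below 0.

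The C3 promoter (GRCr8, chr9:2201290-2201589, minus strand) is shown for its C/EBP motif, since C/EBP factors drive C3 in the acute phase response. The capitals mark a match to TTGCNNAA, which begins at -104.
C3: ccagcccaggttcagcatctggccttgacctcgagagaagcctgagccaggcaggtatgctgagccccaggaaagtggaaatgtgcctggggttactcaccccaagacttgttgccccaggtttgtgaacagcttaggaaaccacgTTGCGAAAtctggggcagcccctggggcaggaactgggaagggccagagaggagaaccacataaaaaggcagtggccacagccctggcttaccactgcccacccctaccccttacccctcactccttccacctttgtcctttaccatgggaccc
On both strands this motif is in 10.6% of all promoters and in 6 of the 19 member promoters (31.6%: C3, C1r, C4bpa, C6, C8a and C8b). The letters TGTTCT, known from glucocorticoid receptor sites and searched as well, are in 20.7% of all promoters and in 1 of the 19, Masp1. Of the acute phase and IL-6 response genes, 17 of 20 were tested, 14 with a difference above 0 and 3 below. Over all tested probes 53.8% were above 0. The median of these genes was 0.23, and 0 passed the adjusted test. The part of C/EBP factors or of an acute phase response in the C3 values was not tested.

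Cfd encodes factor D (adipsin), the protease that cleaves factor B and a product of adipocytes. It read 8.91, 7.97 and 8.00 in AA and 8.38, 8.95 and 8.21 in TP. AA 1 and TP 2 are the high arrays, and the groups overlap. The difference was 0.22 (SE 0.33, interval -0.58 to 1.02). It was 0.0021 without TP 2 and 0.53 without AA 1, and it turned to -0.16 without AA 2 and TP 2 and to -0.26 with array weights. The adipocyte markers (12 of 13 on the array, 11 tested) averaged 0.51, -0.16 and -0.42 in AA and -0.02, 0.31 and -0.22 in TP, highest on the same arrays AA 1 and TP 2. Adipoq was well above background on all 6 arrays and Lep on 1 of each group; the markers' part in the Cfd values was not tested.

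Cfp, properdin, which stabilises the alternative convertase, read 0.92, -0.04 and 0.35 in AA and -0.24, 1.22 and 0.48 in TP, so TP holds both the lowest and the highest value. The difference was 0.081 (SE 0.42), and it was -0.65 with slide as a block. Cfi, factor I, which degrades C3b and C4b, was one of the few members with a value below 0. It read -0.34, 0.45 and -0.16 in AA and -0.78, 0.10 and -0.93 in TP. TP 1 and TP 3 are below all AA arrays, while AA 2 and TP 2 are the highest of their groups, the reverse of the C1q chains. The difference was -0.52 (SE 0.34, interval -1.35 to 0.31), or 0.698-fold (0.392 to 1.24), and it was -0.84 without TP 2. All 5 alternative pathway genes were tested, 4 with a difference above 0 and 1 below, with a median of 0.22. That median turned to -0.16 without arrays AA 2 and TP 2.

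**Figure D2:**
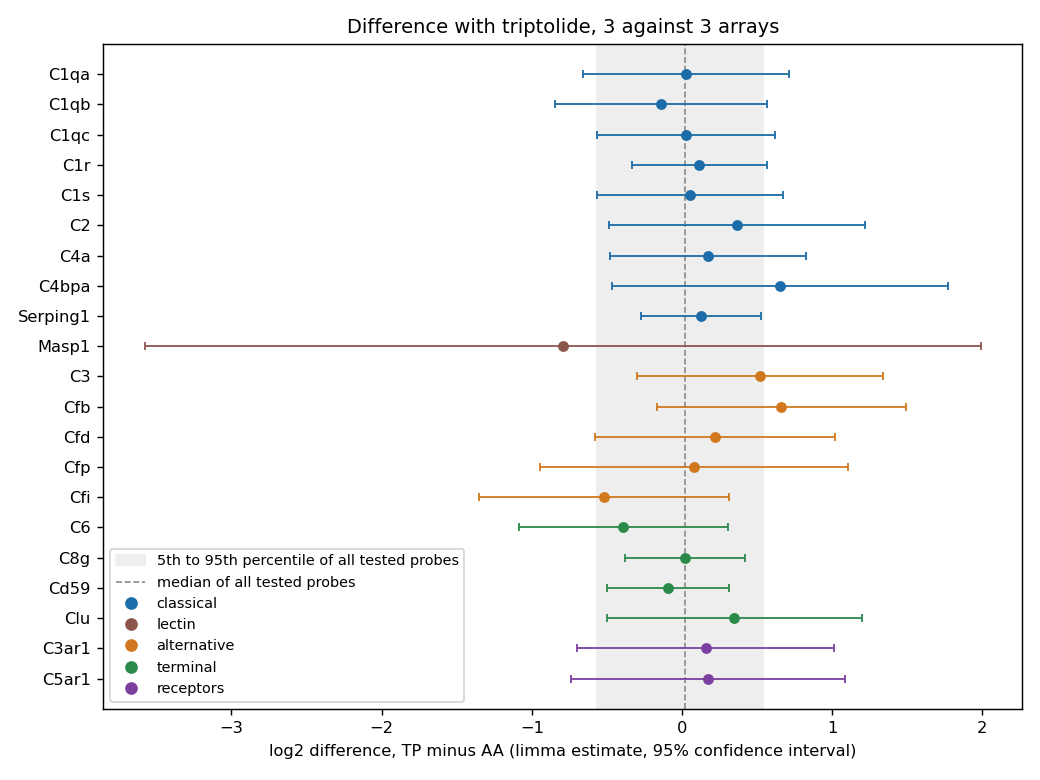
Difference of each tested complement member between TP and AA on the log2 scale (limma estimate with its 95% confidence interval, 3 against 3 arrays), coloured by step, over a grey band for the 5th to 95th percentile of all tested probes (-0.56 to 0.54). All 21 intervals cross 0, and the points for C4bpa and Cfb above the band and Masp1 below it have intervals that reach into it.

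Of the lectin pathway only Masp1 was tested by the rule for members. It encodes MASP-1, MASP-3 and the shorter regulator MAp44, which share the first part of the gene. Its 4 probes lie in order along chromosome 11 of rn4 on the plus strand, at chr11:79556315-79557485 (a span longer than the probe), chr11:79575112-79575171, chr11:79581376-79581435 and chr11:79602404-79602463. The first 3 were tested and are shown because they gave different patterns.
Masp1 first: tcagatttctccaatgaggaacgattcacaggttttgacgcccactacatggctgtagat
Masp1 second: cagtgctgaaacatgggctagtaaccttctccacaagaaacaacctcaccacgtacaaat
Masp1 next: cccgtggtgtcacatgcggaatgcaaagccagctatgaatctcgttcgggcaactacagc
The first probe read -4.14, -0.41 and -4.71 in AA and -4.19, -2.94 and -4.51 in TP. Array AA 2 is far above the rest, and TP 2 is next. The difference was -0.79 (SE 1.15, interval -3.58 to 1.99), and without AA 2 it was 0.54, so its sign rests on that array. The second probe read -4.21, -3.74 and -4.41 in AA and -6.41, -3.37 and -5.19 in TP, and was well above background on 4 arrays. The third read -4.35, -4.61 and -4.50 in AA and -4.32, -3.55 and -4.44 in TP, without the high value of AA 2. The fourth was well above background on 1 array only, TP 2, at -3.58. The high AA 2 value is thus seen on the first probe and not on the third. The skeletal muscle markers averaged -3.76, 8.05 and -3.92 in AA and 1.05, -3.03 and 1.61 in TP, highest on AA 2 as well; Acta1 read 8.37 and Ckm 8.39 there and neither was well above background on AA 1 or AA 3. On the TP arrays the orders differed, with the first Masp1 probe highest on TP 2, where the muscle markers were lowest. MAp44 is known from heart and skeletal muscle. The part of muscle RNA in the Masp1 signal was not tested.

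**Figure D3:**
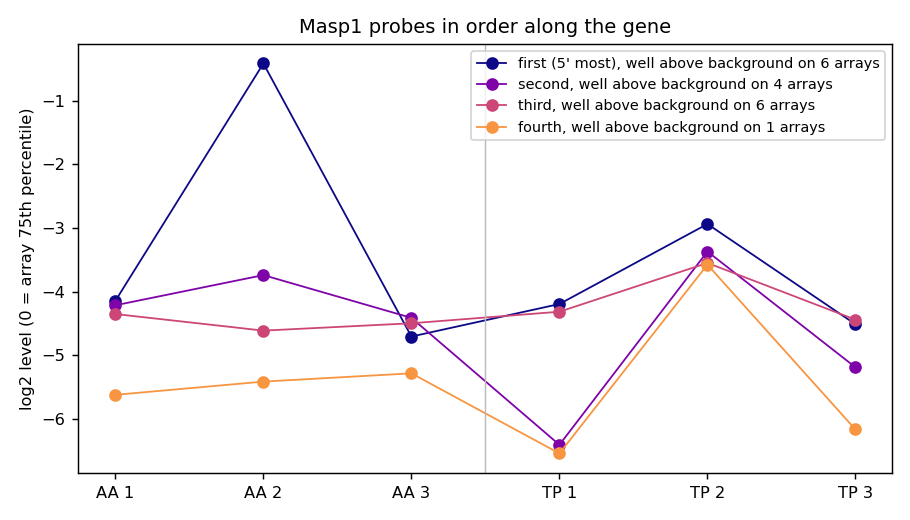
Log2 level of the 4 Masp1 probes on each array (0 is the array's 75th percentile), in their order along the gene from the first to the fourth. The first probe stands at -0.41 on AA 2 and at -2.94 or below on the others, and the third stays between -4.61 and -3.55; lines join the values of a probe and imply no order of arrays.

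Mbl1 and Mbl2, the mannose-binding lectins secreted by the liver, were well above background on 0 of 6 arrays. Masp2, the protease that cleaves C4 and C2, was well above background with 1 of its 4 probes, on array AA 1 only. Fcna, ficolin A of macrophages, had no probe by name. A probe named Fcn1 in the files carries the RefSeq record of Fcna and, outside the rule for members, read 1.27, 0.67 and 1.24 in AA and 1.03, 0.70 and 1.41 in TP, with a difference of -0.014 (SE 0.26). Here too AA 2 and TP 2 were lowest. Of the 5 lectin pathway genes listed, 4 had a probe and 1 was tested.

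The terminal pathway genes, whose products assemble the membrane attack complex, were in part measurable in this tissue. C5 (3 probes) and C9 (1 probe), the start of the complex and its pore-forming unit, were well above background on 0 of 6 arrays. C6, which joins C5b first, read 3.89, 3.36 and 3.97 in AA and 3.41, 2.87 and 3.76 in TP. TP 2 is the lowest array and the groups overlap. The difference was -0.39 (SE 0.29, interval -1.09 to 0.30), or 0.763-fold (0.471 to 1.24); it stayed below 0 when any 1 array was left out (-0.60 to -0.15).

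C8 is made of 3 chains, and its genes were measured unequally. C8g, the gamma chain, differed by 0.021 (SE 0.17), with all 6 arrays between 0.46 and 0.83. C8b, the beta chain, was well above background on 1 AA and 1 TP array. C8a, the alpha chain, was well above background on 2 AA arrays and 0 TP arrays with the probe shown here, which spans chr5:125788916-125804307 of rn4 on the minus strand.
C8a: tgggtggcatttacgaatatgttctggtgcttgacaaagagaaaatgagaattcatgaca
It read -2.62, -6.82 and -4.14 in AA and -4.94, -6.39 and -6.86 in TP. The bound used for dim probes came to 2.02-fold lower with TP, with no test, since the probe is below the filter. That bound sets the AA mean (-4.53) against TP arrays raised to the lowest signal well above background. TP 1, at -4.94, lay above that array's lowest such signal (-6.01) without being well above background, so the bound is not strict. The bound rests mostly on AA 1: without that array it was 1.04-fold, without AA 3 1.76-fold and without AA 2, which was not well above background, 4.47-fold. A decrease with TP is therefore not established. The other C8a probe was well above background on 0 of 6 arrays.

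Regulators of the terminal step also overlapped between the groups. Cd59 encodes the membrane protein that stops C9 from polymerising; the probe's RefSeq record has the symbol Cd59b. It differed by -0.093 (SE 0.17), with all arrays between 4.29 and 4.69. Clu, clusterin, which binds the soluble complex, read 6.19, 5.50 and 5.49 in AA and 5.89, 6.72 and 5.61 in TP, with TP 2 highest. The difference was 0.35 (SE 0.35, interval -0.50 to 1.20). It was 0.024 without TP 2, -0.090 without AA 2 and TP 2 and -0.20 with array weights. It was larger in other settings, at 0.58 without AA 1, 0.58 without TP 3 and 0.78 with normexp background correction. TP 2 was also the array with the high nerve and smooth muscle markers, whose part in the Clu and Cfp values was not tested. Of the terminal step, 4 of the 9 terminal genes listed were tested, 2 with a difference above 0 and 2 below, with a median of -0.036.

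The receptors for the released fragments shared with the C1q chains their low values in AA 2 and TP 2. C5ar1, the C5a receptor of neutrophils and macrophages, read 4.07, 3.36 and 4.21 in AA and 4.39, 3.34 and 4.44 in TP. AA 2 and TP 2 are about level and below the other 4 arrays. The difference was 0.17 (SE 0.38, interval -0.74 to 1.09), or 1.13-fold (0.598 to 2.13). C3ar1, the C3a receptor, read -0.07, -0.98 and 0.07 in AA and 0.10, -0.66 and 0.06 in TP, again lowest in AA 2 and TP 2. Its difference was 0.16 (SE 0.35, interval -0.70 to 1.01). The median of both receptors was 0.17 and turned to -0.13 without array AA 2.

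The members fell into several orders over the arrays. After these values were seen, members were counted by how AA 2 and TP 2 stood. AA 2 and TP 2 were each the lowest of their group in 10 of 21 members, against 27.8% of all tested probes: C1qa, C1qb, C1qc, C1r, C1s, C2, Serping1, C6, C3ar1 and C5ar1. The size of the gap was not weighed, for members or for all probes. It was small for Serping1 in TP (TP 2 8.9558, TP 1 8.9725) and for C1r in AA (AA 2 5.80, AA 1 5.85). TP 2 was the highest of all 6 arrays in 5 of 21, against 24.4%: C4a, Cfb, Cfd, Cfp and Clu. That count is near the share of all tested probes, so it does not set these genes apart. AA 2 was the lowest of all 6 in 10 of 21, against 37.2%. Macrophage markers (18 of 18 on the array, 17 tested) averaged 0.03, -0.53 and 0.26 in AA and 0.38, -0.59 and 0.46 in TP. This mean too was lowest in AA 2 and TP 2. Among the markers, Cd68, Csf1r and Mrc1 had this order. Cd163 did not, with -1.32, -1.27 and -1.47 in AA and -1.55, -1.49 and -1.26 in TP. The part of the macrophage markers in the C1q and receptor values was not tested. Neutrophil markers (10 tested of 17) had a difference above 0 in 10 of 10, against 53.8% of all tested probes. Their median was 0.47, and 0 passed the adjusted test. They averaged -0.57 to 0.11 in AA and -0.40 to 0.89 in TP; their part in the C5ar1 values was not tested. Elane was not well above background on any array. Synovial fibroblast markers (16 of 16 tested) averaged -0.45 to 0.49 in AA and -0.47 to 0.11 in TP, with AA 2 and TP 2 lowest.

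**Figure D4:**
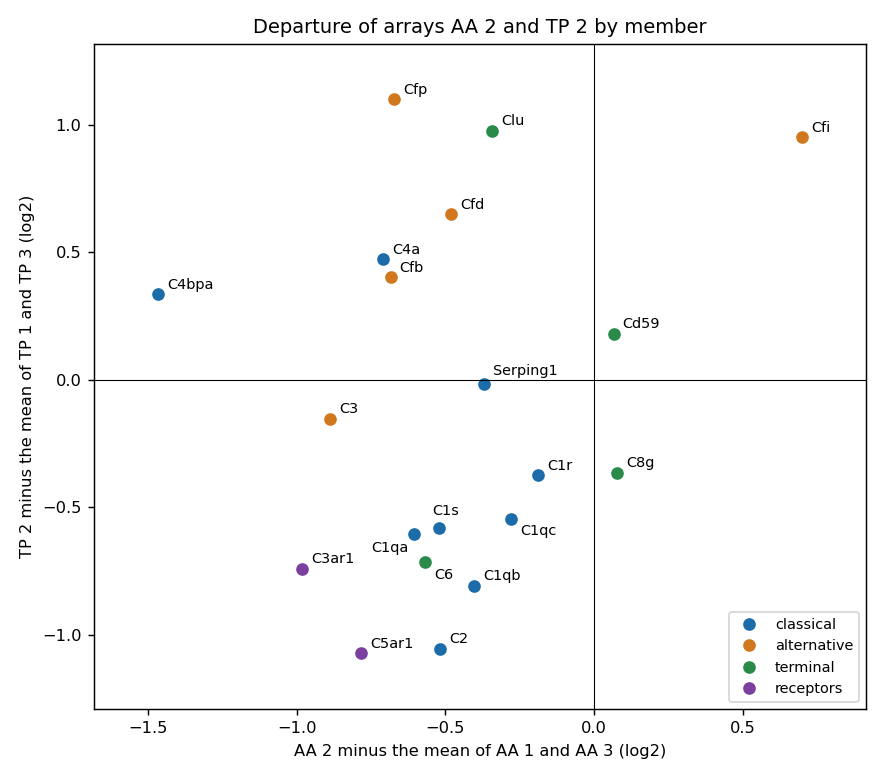
For each tested member other than Masp1, the departure of AA 2 from the mean of AA 1 and AA 3 (horizontal) and of TP 2 from the mean of TP 1 and TP 3 (vertical), in log2 units. The C1q chains, C1r, C1s, C2, C6 and both receptors lie at the lower left, Cfb, Cfd, Cfp, Clu, C4a and C4bpa at the upper left, and Cfi at the upper right; Masp1 (4.01 and 1.42) is off the axes.

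**Figure D5:**
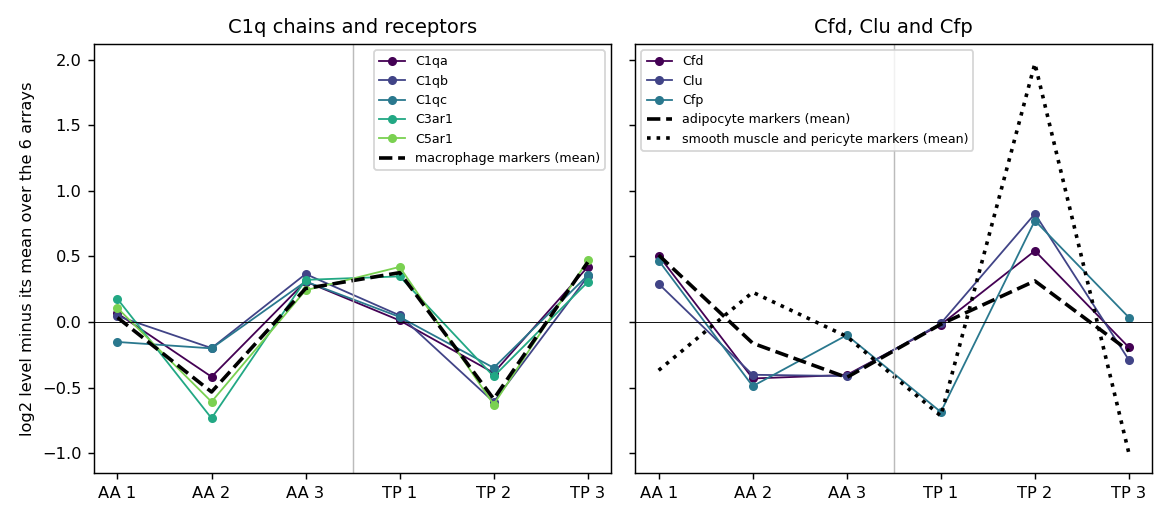
Log2 level minus its mean over the 6 arrays for the C1q chains and fragment receptors beside the macrophage marker mean (left), and for Cfd, Clu and Cfp beside the adipocyte and the smooth muscle and pericyte marker means (right). On the left all lines dip on AA 2 and TP 2, the macrophage mean to -0.53 and -0.59; on the right TP 2 is high, with the smooth muscle mean at 1.97. Lines join values of a gene and imply no order of arrays.

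Other genes of the complement system, taken from a separate list of 32, also gave no call. On the array were 29, of which 15 were tested, 7 with a difference above 0 and 8 below; 0 passed the adjusted test and 0 had an unadjusted p under 0.05. The groups did not overlap in 2 of the 15, against the 8.64% of all tested probes. Calr, calreticulin, a binding partner of C1q, read 4.74, 4.26 and 4.70 in AA and 4.88, 4.82 and 4.90 in TP, a difference of 0.30 (SE 0.18). Cd46, a membrane cofactor for factor I, read -2.75, -2.83 and -2.83 in AA and -3.03, -2.92 and -3.10 in TP, a difference of -0.21 (SE 0.14). The next by p were Cd55, which breaks up convertases (-0.51, SE 0.33), Cr1l, the rodent regulator Crry (0.25, SE 0.17), Thbd, thrombomodulin (0.39, SE 0.26), and Itgam, the alpha chain of complement receptor 3 (0.35, SE 0.30). Their groups overlapped.

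Vsig4, a complement receptor of resident macrophages, was picked from that list after its values were seen. It read 0.02, -3.75 and 0.30 in AA and 0.14, -3.49 and 0.36 in TP. AA 2 and TP 2 are far below the other 4 arrays, the order of the C1q chains and of Prg4 with a wider gap, and the groups differed by 0.15 (SE 1.45).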

How the data were processed

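Arrays of 1 colour (3 AA, 3 TP) were analysed from the scanner output that the authors deposited: spot intensity, background-subtracted and spatially detrended within each array, per the file headers, with nothing normalized between arrays. Agilent Feature Extraction wrote the files, in version 10.7.3.1 per the file headers, while the submitters' processing notes name version 9.1. A table of log2 values that the authors deposited for the series holds 167 rows and 0 members, so it gave no alternative value for them. Probe positions are on rn4, per the file headers.

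From these files, control spots and outlier-marked spots were left out, intensity was put on the log2 scale relative to the 75th percentile of non-control spots on that array, and spots of a probe were averaged. An array whose spot was left out has a missing value in the fit. Probes well above background on at least 3 of 6 arrays (25783 of 41012) entered a limma fit (version 3.58.1, R 4.3.3; lmFit, eBayes, TP minus AA, Benjamini-Hochberg over all tested probes, threshold 0.05). A gene's tested probe with the highest mean signal stands for it. A probe without a signal well above background in a group gets a bound: the brighter group's mean against the dimmer group's, each array there raised to its lowest signal well above background. Steps were tested on simulated data.

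Gene names were matched to the RefSeq table of build GRCr8 (18028 probes by accession, 3169 by symbol, 402 by synonym; 19413 kept the file's name), from which no gene coordinates were used; promoter sequences are RefSeq's, on GRCr8. Marker lists are given per array as the mean over tested genes, each centred on its own mean over 6 arrays. The members and lists were chosen with earlier results of these data known. The rule for named genes takes all members, with per-array values for the member of highest signal and the most variable member of each step; further members with per-array values were picked after their values were seen, as were the 3 counts of how AA 2 and TP 2 stood. Of other complement genes it takes the 6 with the smallest unadjusted p. Across probes, the deviations of the same-numbered AA and TP samples from their group means correlated at r = -0.165, -0.131 and 0.0010. Those of differently numbered samples ran from -0.102 (AA 3 with TP 1) to 0.157 (AA 1 with TP 2). Yet AA 2 and TP 2 were each the lowest of their group in 27.8% of tested probes. These values do not settle whether the replicate numbers pair samples, and the main fit used no pairing. Array correlations were 0.922 to 0.991. The alternatives concerned background correction, normalization, the filter, slide, replicate block, array weights, probe averaging, a muscle marker covariate and arrays left out. Lists of B and plasma cell, endothelial, chondrocyte, hepatocyte, mast cell, erythroid, T and NK cell and interferon-stimulated genes are given in the closing section.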

Additional observations from a re-analysis of the deposited data

How the results depend on the processing

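No member passed an adjusted p of 0.05 under any of the 19 alternatives run; the lowest was 0.182, with array weights. Over all tested probes that count, 0 as reported, was 1 with array weights and 24 without AA 2 and TP 2. The count of tested probes with an unadjusted p under 0.05, 835 as reported, was 1254 with normexp and quantile normalization, 1758 without the filter, 1297 within slide 1, 4345 with array weights, 1659 with the muscle marker covariate, 2879 without AA 2 and TP 2, and 619 to 1657 with 1 array left out, the highest without TP 2. The members' count, 0 as reported, was 1 with normexp (Cfb; 3.66% of all tested probes) and 1 with the replicate block (Cfi; 4.13%). It was 2 without the filter (C9 and Mbl1, neither well above background on any array, against 4.29% of all probes). C2 and Cfi were the 2 of 21 with array weights (16.9%) and without AA 2 and TP 2 (11.2%). With 1 array left out the members' count was 0 to 2. These were C4bpa without AA 1 (2.63% of all tested probes), C3 and Cfb without AA 3 (2.77%), and C2 and Cfi without TP 2 (6.43%). Members whose groups do not overlap, 0 as reported, numbered 3 of 28 without the filter (10.2% of all probes), 6 without AA 2 and TP 2 (28.6% against 45.0%) and 0 to 4 with 1 array left out, the highest without TP 2 (19.0% against 28.0%). The median of the alternative pathway was -0.24 with array weights and -0.16 without AA 2 and TP 2, and that of the terminal step 0.19 without the filter, which adds probes not well above background. Without AA 2 the medians of the classical pathway, the receptors and the lectin pathway turned to -0.063, -0.13 and 0.54; that of the lectin pathway, which is Masp1 alone with the filter, was also 0.32 without the filter and 0.072 without AA 2 and TP 2. The C8a bound with each AA array left out was added after the data were seen. The members' median ranged from -0.063 without AA 2 to 0.22 without AA 3. The difference kept its sign under all 19 for C1r, C2, C3, C6, Cfb, Cfi and Serping1, in settings that reuse the same arrays. With 1 array left out it fell to 0.016 for C1r and to 0.0064 for Serping1, whose other probe differed by -0.0025. Slide as a block, which rests on TP 1 alone against the AA arrays, turned C4a to -0.090 and Cfp to -0.65. There C2 was 0.83, C5ar1 0.51 and Cfb 0.34. Whether the replicate numbers pair the samples is not settled. With the replicate block, 1066 probes had an unadjusted p under 0.05. The cause of these shifts was not tested. With 3 arrays a group, their number limits the precision.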

Other observations

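Interferon-stimulated genes (18 tested of 20) had a difference above 0 in 16 and below in 2, against 53.8% above 0 over all tested probes. Their median was 0.46, and 0 passed the adjusted test. They averaged -0.40 to -0.01 in AA and -0.92 to 1.56 in TP, the highest in TP 1. T and NK cell markers (16 tested of 16) averaged -0.68 to 0.37 in AA and -0.95 to 0.59 in TP, lowest in AA 2 and TP 2 like the C1q chains. B and plasma cell markers (5 tested of 13) averaged -0.87 to 0.23 in AA and -0.27 to 0.46 in TP. Endothelial markers (12 tested of 12) averaged -0.21 to -0.00052 in AA and -0.35 to 0.77 in TP, highest in TP 2. Chondrocyte markers (9 tested of 12) averaged -0.13 to 0.53 in AA and -1.14 to 0.70 in TP. Mast cell markers (9 tested of 11) averaged -0.26 to 0.35 in AA and -0.48 to 0.34 in TP. Erythroid markers (4 tested of 8) averaged -1.16 to 0.29 in AA and -0.11 to 0.59 in TP.

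Hepatocyte markers were tested for 5 of 15 genes, with Ttr, the transthyretin gene, well above background on 0 of 6 arrays and Alb at -1.72, -1.87 and -4.03 in AA and -1.80, -1.89 and -3.19 in TP. Hp, haptoglobin, an acute phase gene, read 1.54, -0.16 and 1.77 in AA and 1.89, 1.77 and 2.02 in TP. Its groups only just failed to overlap, with AA 3 at 1.766 and TP 2 at 1.773, and 8.64% of all tested probes did not overlap. The difference was 0.84 (SE 0.51), and AA 2 was its lowest array, as it was for C3 and Cfb.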
